A study of Mus musculus with 5 samples.

Results

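The genes described here encode voltage-gated sodium, potassium and calcium channels, the other potassium channels, the HCN pacemaker channels and their accessory subunits, as read in RNA of mouse mitral valve leaflets. They were chosen by symbol (those that begin with Kcn, Scn, Cacna, Cacnb, Cacng or Hcn) and by a sum of at least 10 raw reads over 5 libraries. The rule itself uses no fold change or test, but it was set with earlier results of these data known. Of 141 symbols that fit the naming rule, 99 reached 10 reads, out of 24062 genes in the table. A gene with few reads can pass such a sum through the group in which it is read, so counts of members are given as a description beside the same counts over all genes. The study compared 2 libraries titled WT with 3 titled KO, to see what loss of Ift88, which encodes a protein of ciliary transport, does to the transcriptome of the leaflet. All 5 libraries carry NfatC1Cre, a Cre driver active in the endocardial lineage, so leaflet cells of other lineages would keep the gene. The genotype label gives Ift88f/f to the WT libraries and Ift88+/+ to the KO libraries, opposite to what the titles imply, and the groups used here follow the titles. No age is given. Separate animals are named in no label, so p-values measure the spread between these libraries, which may be technical. WT 1, WT 2, KO 1, KO 2 and KO 3 are the libraries of each group in order of deposit, and values are listed in that order.

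Channel proteins open a selective pore for one kind of ion in response to voltage, ligands, calcium or the metabolic state of the cell. Inward rectifiers and two-pore domain potassium channels hold the resting potential, voltage-gated sodium and calcium channels start and sustain the action potential, voltage-gated potassium channels end it, and HCN channels drive pacemaking. Heart muscle is the best-known site of these currents in the heart. Non-excitable cells use a smaller set, such as Kcnn4 in endothelial and immune cells and Kcnj8 in pericytes.

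Libraries held between 23361414 and 53789026 counted reads. Levels are CPM, reads per gene relative to library size with scaling by the TMM method, and 3 reads amount to between 0.052 and 0.123 CPM, the limit of detection used here. Ift88 itself stood at 7.54 and 19.8 CPM in the WT libraries against 3.0, 3.92 and 0.409 CPM in the KO libraries, the direction of the titles. All 10 interstitial and all 11 endothelial markers were read in every library, as the tissue label would have it, with the lowest sums in WT 1 (2791 and 363 CPM). Markers of heart muscle were also read. The 15 markers summed to 54401 CPM in WT 1 and to 29602 to 40565 CPM in KO, but to 109 CPM in WT 2, where all 15 still had at least 1 read. WT 2 therefore stood apart from the other 4 libraries in muscle RNA, and fold changes without it are given for many of the members that it moves. In bulk tissue, fewer cells of a type and less RNA per cell cannot be told apart.

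The promoters of 3 of the 5 members with an unadjusted p under 0.05 are shown, since they hold both directions of difference. Those of Kcna2 and Kcnk3 are not shown. They are the 250 bases before the start of the gene in RefSeq (GRCm38.p6), 5′ to 3′ on the gene's own strand, and capitals mark GGACAG or its reverse complement, which is a part of the RE1 element bound by the repressor REST, known for silencing neuronal channel genes outside neurons. Kcnip3 (chr2:127522095-127522344, minus strand) and Kcnj5 (chr9:32344345-32344594, minus strand) were higher in KO, and Kcnj8 (chr6:142571615-142571864, minus strand) was lower.
Kcnip3: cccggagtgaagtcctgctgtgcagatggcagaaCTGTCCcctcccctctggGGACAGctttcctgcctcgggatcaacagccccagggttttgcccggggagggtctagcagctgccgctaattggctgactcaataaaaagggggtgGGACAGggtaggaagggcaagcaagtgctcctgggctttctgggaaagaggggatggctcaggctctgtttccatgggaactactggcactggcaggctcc
Kcnj5: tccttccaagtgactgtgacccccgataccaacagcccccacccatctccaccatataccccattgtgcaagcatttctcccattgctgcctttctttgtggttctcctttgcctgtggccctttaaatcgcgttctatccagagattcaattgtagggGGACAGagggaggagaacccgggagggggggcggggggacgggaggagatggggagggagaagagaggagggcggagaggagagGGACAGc
Kcnj8: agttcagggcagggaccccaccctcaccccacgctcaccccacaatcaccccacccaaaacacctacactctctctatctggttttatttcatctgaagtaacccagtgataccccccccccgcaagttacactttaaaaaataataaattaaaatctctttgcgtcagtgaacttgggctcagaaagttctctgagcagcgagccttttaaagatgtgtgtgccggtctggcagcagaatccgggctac
The windows of Kcnip3 and Kcnj5 held 3 and 2 copies, and that of Kcnj8 held none. A promoter window was found for 73 of the 99 members. Of these 20 (27.4%) held GGACAG on either strand, against 18.7% of all 27025 promoters of the same length. GC content was higher as well, with a median of 58.8% in the members and 52% in all promoters. The TATA box letters TATAAA stood in 2 member windows (2.74%, against 13% of all), and the letters AGATAA, read by GATA factors, also in 2 (2.74%, against 10.3%). CTA and TAG spaced by 4 bases, a form of the MEF2 site of muscle genes, stood in 0 of the 73 (3.23% of all). A match is a run of letters and no measured binding.

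Among the 79 members that passed the filter on low counts, 8 had their 3 KO libraries above both WT libraries, among them Kcna2, Kcnk3, Kcnj5, Kcnip3, Kcnt2, Kcne4 and Cacna1d. Kcnj8 had all 3 below, and the groups overlapped for the other 70. The 8 make up 10.1% of the members tested, against 13.5% of all genes tested, and the 1 lower member makes up 1.27%, against 11.1%. No member passed the edgeR quasi-likelihood test after adjustment over 14244 genes (smallest adjusted p = 0.81), and neither did any other gene (0%). At an unadjusted p under 0.05 there were 4 members higher (Kcna2, Kcnk3, Kcnj5 and Kcnip3) and 1 lower (Kcnj8), where 4.57% of all genes were higher and 1.27% lower. Fold changes were positive for 49 of the 79 (62.0%, against 49.4% of all genes), with a median log2 fold change of 0.50, against -0.01. With each library's trend of counts with transcript length removed, 38 of 79 were positive and the median was -0.09, against -0.10 over all genes. Without WT 2, 94 members were tested, of which 23 lay above WT 1 in all KO libraries and 18 below it. These are to be read against 30.7% and 30.2% of all genes tested in that fit. The median of the members was then 1.84, against 0.25 over all genes, and without WT 1 it was 4.55, against 0.15. These medians are over 94 and 95 members, since the filter lets in more genes when 1 WT library is left. They are therefore not medians of the 79 members above. Genes without a read in the remaining WT library get large fitted values that depend on the prior count. Of the 79 members tested with and without WT 2, 25 changed the sign of their fold change. This count was not made over all genes, so it is not shown to be particular to the members.

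Other tests on the same counts gave more calls. The edgeR likelihood-ratio test called 50 genes (0.351%), among them Kcna2. DESeq2 called 376 (2.33%), among them Kcna2, Kcnip3, Kcnk3, Kcnk1 and Kcnv2, of which the last pair was read in 1 library each. limma-voom called 0. Without WT 1 the quasi-likelihood test called 245 genes (1.6%), with Kcnh2 and Cacna1c among them, but WT 2 is then the sole WT library and the p-values hold no spread between WT libraries.

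**Figure D1:**
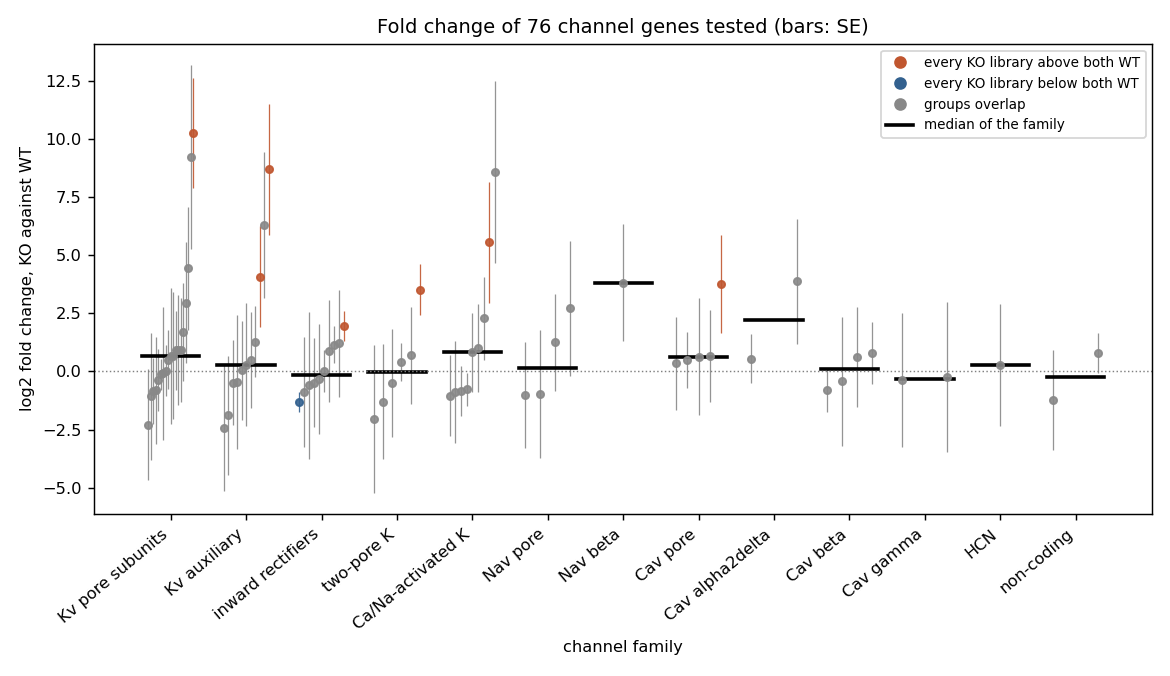
Fitted log2 fold change of KO against WT for 76 of the channel genes tested, by family, with bars of 1 SE and black lines at the family medians of the genes drawn. Red points are 7 genes with every KO library above both WT libraries and the blue point is Kcnj8. Points far above 5 belong to genes with few or no WT reads, whose fitted value depends on the prior count.

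Many channel genes were read in some libraries and not in others. Of the 99 members, 33 (33.3%) had a read in all 5 libraries, against 74.2% of the 15825 genes with at least 10 reads. In 21 members (21.2%, against 7.08%) at least 90% of the reads lay in 1 library, and 10 of these were read mainly in KO 2, among them Hcn3, Scn9a and Scn3a. Kcnv2, a silent partner of Kv2 channels, had 316 reads, all in KO 3, and was not tested. No WT read was found for 17 members (17.2%, against 5.83%), but only Kcna2 and Kcnip3 of these were read in all 3 KO libraries. Conversely, Kcnj13 and Kcnk15 (2.02%, against 2.07%) had reads in WT alone, in 1 library each. Absence from 3 KO libraries is a stricter condition than absence from both WT libraries. Just inside the rule lay Kcnk12 with 10 reads (all in KO 3), Kcng1 with 13, Cacng5 with 15 and Kcnj13 with 18. Just outside it lay Cacng7 with 9 reads and Cacng3 and Scn11a with 8 each, all of them in KO 1. Of the 42 symbols left out, 26 had no read at all, among them Hcn2, Cacna1s (the skeletal muscle calcium channel), Scn4a (the skeletal muscle sodium channel) and Kcnj10.

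**Figure D2:**
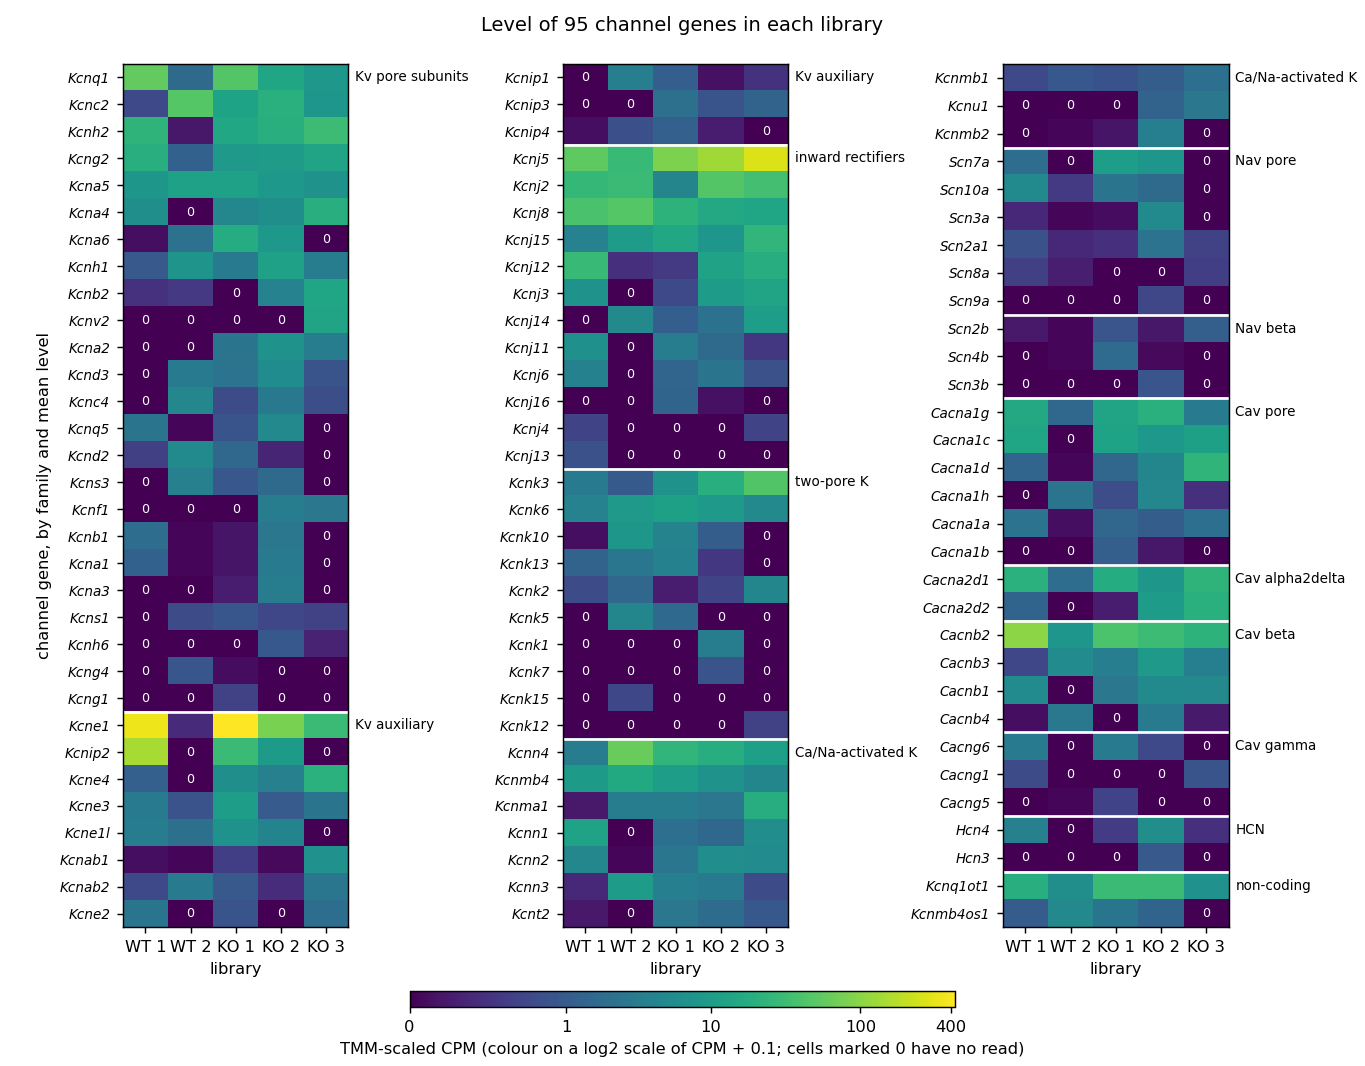
Levels of 95 channel genes by library, as TMM-scaled CPM with a log2 colour scale, with genes ordered by family and mean level and cells without a read marked 0. The 14 genes with at least 1 CPM in all 5 libraries include Kcnj5, Kcnj8, Kcnj2, Kcna5, Kcnq1, Kcnn4 and Cacnb2.

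Inward rectifiers held both the most abundant channel gene of KO 2 and KO 3 and the 1 member that was lower in KO. Kcnj5 (chromosome 9, 32314707 to 32344350 in GRCm38, minus strand) encodes Kir3.4, which with Kir3.1 from Kcnj3 forms the acetylcholine-activated potassium channel of atrial and nodal cells. It stood at 54.0 and 28.8 CPM in the WT libraries against 81.9, 129 and 275 CPM in the KO libraries. Every KO library was above both WT libraries, with means of 41.4 ± 17.8 CPM (SD, n = 2) in WT and 162 ± 101 CPM (SD, n = 3) in KO. On the log2 scale this was a difference of 1.97 (SE 0.64, edgeR quasi-likelihood test, adjusted p = 0.81), and 0.96 among WT 1, KO 1 and KO 2, whose titles share a code. Kcnj3 stood at 6.93 and 0 CPM in the WT libraries against 0.537, 10.0 and 13.3 CPM in the KO libraries. Its groups overlapped, and KO 2 and KO 3 were the highest for both genes of the pair. Myl7 and Sln, which are known mainly from atrial muscle, were highest in the same libraries, at 556, 10.1, 149, 5081 and 6871 CPM for Myl7 and 2.85, 0.659, 0, 613 and 489 CPM for Sln. Myh6 and Myl4 also had KO 2 and KO 3 as their highest libraries, and the other heart muscle markers did not. Among the latter, Nppa, also known from atrial muscle, stood at 1544, 0.607, 345, 43.6 and 495 CPM. The part of these muscle genes in the level of Kcnj5 was not tested. Without WT 2 the log2 differences were 1.58 for Kcnj5 and 0.20 for Kcnj3.

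Kcnj8 (chromosome 6, 142564837 to 142571614, minus strand) encodes Kir6.1, the pore of the ATP-sensitive potassium channel of vessels and pericytes. Its levels were 38.9 and 46.8 CPM in the WT libraries against 22.4, 15.6 and 13.5 CPM in the KO libraries. Both WT libraries lay above every KO library and close to each other, with means of 42.8 ± 5.64 CPM (SD, n = 2) and 17.1 ± 4.67 CPM (SD, n = 3). Its log2 fold change was -1.32 (SE 0.44, edgeR quasi-likelihood adjusted p = 0.81), and it lay between -1.60 and -1.03 without any 1 library and within the shared title code. Abcc9, the regulatory SUR2 subunit that Kir6.1 needs, did not share this order, at 62.6 and 7.19 CPM in the WT libraries against 75.7, 25.3 and 5.77 CPM in the KO libraries. The pericyte gene Rgs5 stood at 7.35 and 3.88 CPM in the WT libraries against 14.2, 2.31 and 10.4 CPM in the KO libraries, and Pdgfrb was higher in every KO library (65.2 to 84.3 CPM against 19.8 and 26.2). The 11 smooth muscle and pericyte markers summed to 2372 and 695 CPM in WT and 1451 to 3121 CPM in KO. Acta2, Tagln and Des made up most of these sums, so they say little about pericytes. Des was nearly absent from WT 2, as the heart muscle markers were, at 821 and 0.26 CPM in WT against 553, 631 and 1484 CPM in KO. The part of these cells in the level of Kcnj8 was not tested.

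Kcnj2, which encodes Kir2.1, the main inward rectifier of ventricular muscle that is also used by endothelium, stood at 26.0 and 30.0 CPM in the WT libraries against 4.39, 46.1 and 34.8 CPM in the KO libraries. The WT libraries lay close together and KO 1 was far below all others. Kcnj12 (Kir2.2) had 28.3 and 0.208 CPM in the WT libraries against 0.316, 12.3 and 18.1 CPM in the KO libraries, and Kcnj11, which encodes the Kir6.2 pore of the muscle ATP-sensitive channel, had 6.47 and 0 CPM against 3.25, 1.70 and 0.287. Both were near or at 0 in WT 2 and spread widely within KO, and without WT 2 their log2 fold changes went from -0.48 to -1.47 and from -0.88 to -1.89. Of the 10 inward rectifiers tested, 5 had a positive and 5 a negative fold change.

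Among two-pore domain channels, which carry background potassium current, Kcnk3 (chromosome 5, 30588170 to 30625271, plus strand) was the 1 member whose groups did not overlap. It encodes TASK-1, an acid-sensitive channel of atrial muscle and pulmonary artery. Levels were 3.16 and 0.971 CPM in the WT libraries against 7.04, 19.2 and 44.3 CPM in the KO libraries, so that the lowest KO library held more than the highest WT library. WT and KO means were 2.06 ± 1.55 CPM (SD, n = 2) and 23.5 ± 19.0 CPM (SD, n = 3). On the log2 scale the difference was 3.51 (SE 1.09, edgeR quasi-likelihood adjusted p = 0.81), 2.89 without WT 2 and 2.05 within the shared title code. DESeq2 gave it an adjusted p of 0.0288. Its order across the KO libraries was that of Kcnj5 and of Myl7 given above, though not that of Nppa. An exon of the antisense gene Gm9899 overlaps it, and reads of the stretch they share cannot be separated without strand. Kcnk6 (TWIK-2) was even, at 3.92 and 9.19 CPM in the WT libraries against 11.7, 9.27 and 4.99 CPM in the KO libraries. Kcnk2, the mechanosensitive channel TREK-1, stood at 0.571 and 1.49 CPM in the WT libraries against 0.0948, 0.448 and 4.5 CPM in the KO libraries, with overlap.

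Voltage-gated potassium channel pores formed the largest family, with 25 members of which 19 were tested and 12 were positive. Kcna2 (chromosome 3, 107101146 to 107115005, plus strand) encodes Kv1.2, best known from axons and also present in vascular muscle. It had no read in WT and 75, 293 and 79 reads in KO, which are 2.37, 6.91 and 3.23 CPM. Against a floor of 3 reads over the WT group it was at least 127-fold higher in KO, and its unadjusted p was the smallest of all members (0.00689, adjusted p = 0.81, edgeR quasi-likelihood test). The likelihood-ratio test and DESeq2 gave adjusted p-values of 0.0203 and 0.00022. Its neighbour on the chromosome, Kcna3, was also without a read in WT but had 0.0948, 3.35 and 0 CPM in KO. Some nerve markers also had groups that did not overlap. Sox10, a transcription factor of Schwann cells, was at 1.48 and 0.78 CPM in WT and 3.32, 3.77 and 2.33 CPM in KO. S100b and Uchl1 had every KO library above both of WT as well, and Elavl4 had every one below. Their part in the level of Kcna2 was not tested. The 12 neuron markers summed to 50.5 and 77.6 CPM in WT and 57.4 to 131 CPM in KO, and the 10 Schwann cell markers to 11.7 to 32.1 CPM over all 5 libraries, with Elavl3 and Cdh19 at 0 throughout.

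Kcna5, which encodes Kv1.5 of the atrial ultrarapid current, was even across the libraries, at 8.14 and 11.8 CPM in the WT libraries against 11.8, 8.63 and 7.04 CPM in the KO libraries (log2 fold change -0.12, SE 0.66). Kcnh2, the pore of the rapid delayed rectifier, had 23.0 and 0.0693 CPM in the WT libraries against 14.7, 18.8 and 31.1 CPM in the KO libraries. Its low WT 2 value decides the sign of its fold change, which was 0.90 with all libraries and -0.10 without WT 2. Kcnc2, which encodes the fast channel Kv3.2, showed the opposite WT pair, with 0.533 CPM in WT 1 and 48.0 CPM in WT 2, and had 12.9, 20 and 7.94 CPM in KO. Its log2 fold change was -0.84 with all libraries and 4.66 without WT 2. Kcnd2 and Kcnd3, the pores of the transient outward current, stood at 0 to 5.73 CPM in every library, with overlap in both. Kcna4 (Kv1.4) had 6.36 and 0 CPM in the WT libraries against 4.64, 6.30 and 19.7 CPM in the KO libraries, with a log2 fold change of 1.69 that was 0.68 without WT 2.

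Kcnq1 and Kcne1, the pore and the accessory subunit of the slow delayed rectifier, both had WT 1 and KO 1 as their highest libraries. Kcne1 (chromosome 16, 92345982 to 92359468, minus strand) stood at 346 and 0.173 CPM in the WT libraries against 424, 80.7 and 29.7 CPM in the KO libraries. Kcnq1 stood at 57.4 and 1.68 CPM in the WT libraries against 46.3, 13.5 and 8.60 CPM in the KO libraries. WT 1 and KO 1 were high and WT 2 lowest for both genes, so the spread within each group exceeded the difference between groups (log2 fold changes 0.04, SE 2.11, and -0.37, SE 1.35). Without WT 2 they were -0.96 for Kcne1 and -1.33 for Kcnq1. Kcnip2, the subunit of the ventricular transient outward channel, also had its highest levels in WT 1 and KO 1, with 142 and 0 CPM in the WT libraries against 30.3, 9.32 and 0 CPM in the KO libraries (log2 fold change -2.43, and -3.43 without WT 2). Myh7 and Pln, muscle genes known mainly from ventricle and from slow fibres, were highest in the same 2 libraries, at 1642, 5.04, 4011, 689 and 232 CPM for Myh7 and at 4489, 1.06, 1842, 370 and 218 CPM for Pln. Their part in these channel levels was not tested.

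Among the other accessory subunits of voltage-gated potassium channels, Kcnip3 and Kcne4 were higher in every KO library. Kcnip3 (chromosome 2, 127456498 to 127522094, minus strand) encodes DREAM, a calcium-binding protein that modulates Kv4 channels and also represses transcription. It had no WT read and stood at 2.12, 0.778 and 1.35 CPM in KO (67, 33 and 33 reads), at least 37.8-fold higher (unadjusted p 0.0259, adjusted p = 0.81, edgeR quasi-likelihood test). Its promoter window above holds the most GGACAG letters of the 3 shown. Kcne4, which encodes an inhibitory subunit of Kv1 and Kv7 channels, stood at 1.22 and 0 CPM in the WT libraries against 6.25, 3.70 and 20.7 CPM in the KO libraries. The log2 fold change was 4.08 (SE 2.18), 3.06 without WT 2 and 2.03 within the shared title code. Kcne3, Kcnab2 and Kcne1l overlapped between groups.

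**Figure D3:**
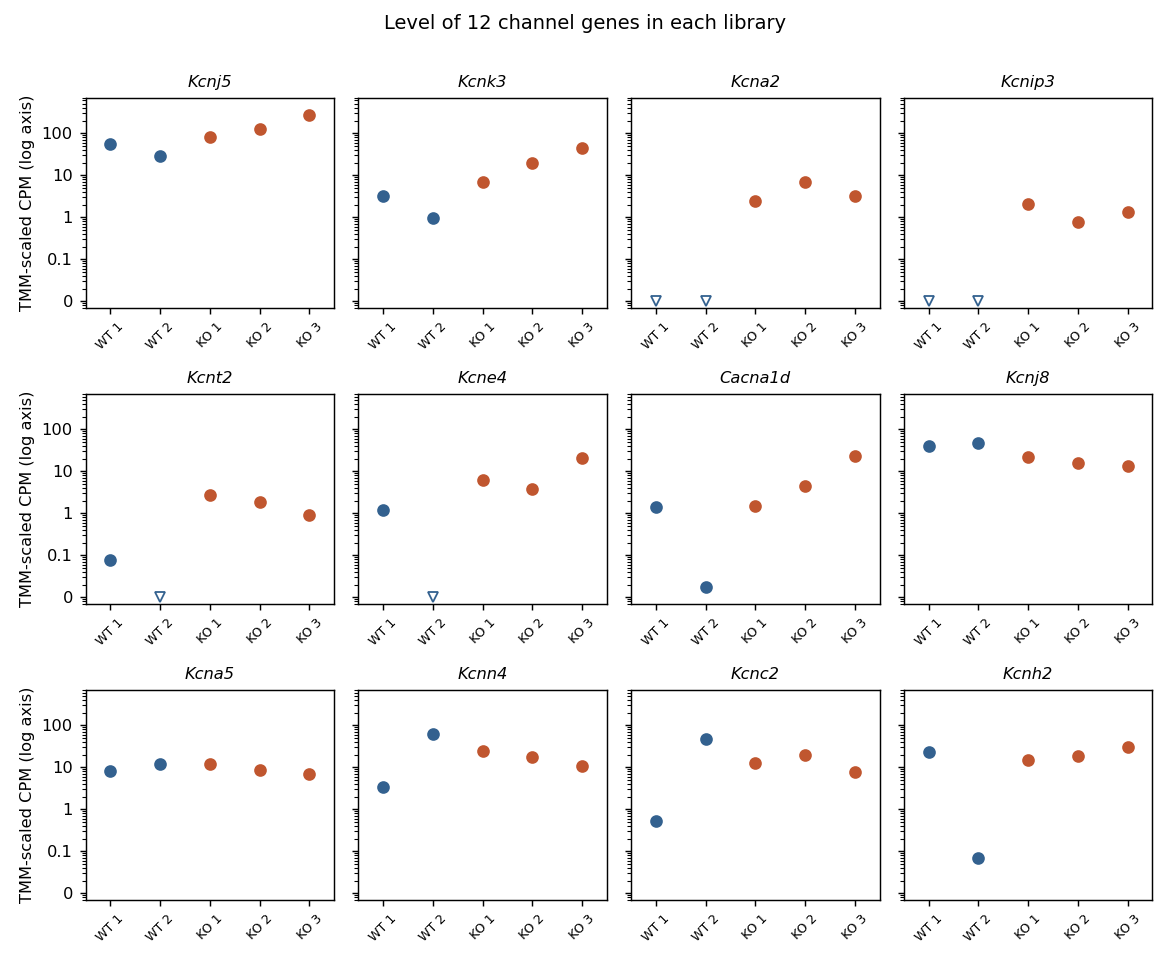
Levels of 12 channel genes by library, as TMM-scaled CPM (log axis), with WT in blue, KO in red and open triangles for no read. KO libraries lie above both WT libraries in the first 7 panels and below both for Kcnj8, while Kcna5, Kcnn4, Kcnc2 and Kcnh2 overlap.

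Calcium- and sodium-activated potassium channels included 10 members. Kcnt2 (chromosome 1, 140246158 to 140612067, plus strand), a sodium-activated channel, had 2 reads in WT 1, none in WT 2 and 84, 77 and 22 reads in KO, or 2.65, 1.82 and 0.901 CPM. The ratio of KO to WT was 78.0 with a 95% counting interval of 21.3 to 649. Kcnn4, the intermediate-conductance channel of endothelial and immune cells, stood at 3.35 and 60.8 CPM in the WT libraries against 24.8, 18.0 and 11 CPM in the KO libraries. The KO libraries lay between the WT pair, and the log2 fold change of -0.84 was 2.42 without WT 2. Kcnn3, the small-conductance channel of endothelium, was likewise low in WT 1 (0.152 CPM) and high in WT 2 (9.91 CPM), with 3.60, 3.09 and 0.573 CPM in KO. Its log2 fold change was -1.06, and 3.96 without WT 2, where the WT side rests on 4 reads in WT 1. The endothelial markers had the WT order of Kcnn4 and Kcnn3, with sums of 363 and 3123 CPM in the WT libraries against 1873, 3107 and 2195 CPM in the KO libraries. Most other marker lists also had this WT order, among them mast cell (30.7 and 237 CPM) and macrophage markers (210 and 325 CPM). The heart muscle, pacemaker and smooth muscle lists had the reverse. The part of these cells in the levels of Kcnn4 and Kcnn3 was not tested. Kcnn2, known from atrial muscle, had the reverse WT order, with 4.64 and 0.0173 CPM, and 2.53, 6.04 and 5.57 CPM in KO (log2 fold change 1.02, and 0.02 without WT 2). Kcnma1, the pore of the large-conductance channel of smooth muscle, stood at 0.0761 and 3.26 CPM in the WT libraries against 3.22, 2.67 and 18.5 CPM in the KO libraries. WT 2 thus lay within the range of the KO libraries. The log2 fold change was 2.28, and 6.67 without WT 2, where the WT side rests on 2 reads in WT 1. The smooth muscle partner of Kcnma1, Kcnmb1, was at 0.533 to 2.01 CPM throughout. The neuronal partner Kcnmb4 stood at 9.36 and 15.9 CPM in the WT libraries against 10.6, 7.12 and 4.5 CPM in the KO libraries.

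Sodium channel genes overlapped between groups in all members tested. Scn7a, an atypical sodium channel that senses sodium level and is found in Schwann cells, stood at 1.90 and 0 CPM in the WT libraries against 10.7, 7.95 and 0 CPM in the KO libraries (log2 fold change 2.72, and 1.71 without WT 2). It was read in WT 1, KO 1 and KO 2, whose titles share a code, and not in WT 2 or KO 3. Scn10a, known from sensory and cardiac neurons, had 5.18 and 0.312 CPM in WT and 2.37, 1.67 and 0 CPM in KO. Scn2a1, a neuronal pore, stayed between 0.156 and 2.36 CPM, with its highest level in KO 2. Among the beta subunits, Scn4b exceeded the detection limit in KO 1 alone (1.74 CPM), and Scn2b had 0.0761 and 0.0173 CPM in WT and 0.821, 0.0708 and 1.15 CPM in KO, with overlap.

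All 5 calcium channel pores tested had a positive fold change and 0 passed. Cacna1c, which encodes Cav1.2 of cardiac and smooth muscle, stood at 13.8 and 0 CPM in the WT libraries against 12.8, 8.68 and 11.3 CPM in the KO libraries. The KO libraries and WT 1 were alike, and the log2 fold change of 0.67 was -0.34 without WT 2 and -0.79 with the length trend removed. Cacna1d (chromosome 14, 30039939 to 30491455, minus strand) encodes Cav1.3 of atrial and nodal cells and stood at 1.45 and 0.0173 CPM in the WT libraries against 1.48, 4.55 and 23.5 CPM in the KO libraries. Its groups did not overlap, but WT 1 and KO 1 differed by less than their detection limits. The log2 fold change was 3.76 (SE 2.11), 2.76 without WT 2, 2.05 without KO 3 and 1.06 within the shared title code, and the gene shares an exon region with Chdh on the other strand. The T-type channel Cacna1g had 15.6 and 1.61 CPM in the WT libraries against 13.1, 19.9 and 2.99 CPM in the KO libraries (log2 fold change 0.48, and -0.38 without WT 2), and Cacna1h had 0 and 2.37 CPM against 0.632, 4.72 and 0.205.

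Accessory calcium channel subunits overlapped between groups in all 8 members tested. Cacnb2, the main cardiac beta subunit, stood at 99.8 and 7.89 CPM in the WT libraries against 39.7, 30.9 and 22.2 CPM in the KO libraries. WT 1 was above and WT 2 below every KO library, and the log2 fold change of -0.80 was 1.94 without WT 1 and -1.69 without WT 2. Cacna2d1, the alpha2delta subunit of heart and vessel, had 20.5 and 1.87 CPM in the WT libraries against 17.5, 8.35 and 23.1 CPM in the KO libraries, and its log2 fold change of 0.55 was -0.33 without WT 2. Cacna2d2, known from atrium and neurons, had 1.37 and 0 CPM in the WT libraries against 0.0948, 9.69 and 20.3 CPM in the KO libraries, with a log2 fold change of 3.89 that was 2.87 without WT 2. Its 2 highest libraries, KO 2 and KO 3, were again those of Myl7 and Sln, though not those of Nppa.

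Of the HCN channels, Hcn4, the principal pacemaker channel of the sinoatrial node, stood at 3.73 and 0 CPM in the WT libraries against 0.347, 6.20 and 0.205 CPM in the KO libraries. The groups overlapped and KO 2 was the highest library (log2 fold change 0.28, SE 2.62, and -0.73 without WT 2). Hcn3 was read in KO 2 alone, at 0.920 CPM. Shox2, a transcription factor of the sinus node and its surroundings, was highest there too, at 0 and 0.104 CPM in the WT libraries against 0.758, 21.3 and 5.12 CPM in the KO libraries. Of the other pacemaker and conduction markers, Tbx3, Tbx5, Smoc2 and Cntn2 were also highest in KO 2. Tbx18, Etv1 and Irx3 were highest in WT 1, and Gja5 and Gjd3 in KO 3. The 11 pacemaker and conduction markers summed to 211 and 21.9 CPM in the WT libraries against 152, 382 and 309 CPM in the KO libraries, with Isl1 at or near 0 in all. Tbx5 and Gja5, at 171 and 82.6 CPM, made up most of the KO 2 sum. The part of these markers in the HCN levels was not tested.

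Both non-coding members lie antisense to another member, so reads where their exons overlap cannot be assigned to either in libraries that do not mark strand. Kcnq1ot1, the imprinted RNA inside Kcnq1, stood at 19.6 and 6.14 CPM in the WT libraries against 30.0, 29.6 and 6.76 CPM in the KO libraries, and did not follow the order of Kcnq1. Kcnmb4os1, antisense to Kcnmb4, stood at 1.03 and 4.96 CPM in the WT libraries against 2.46, 1.37 and 0 CPM in the KO libraries, and had WT 2 highest and KO 3 lowest, as Kcnmb4 did.

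A set of 11 members (11.1%, against 1.77% of all genes with at least 10 reads) lay under 0.1 CPM in WT 2 and at 1 CPM or more in each of the other 4 libraries. Among them are Cacna1a, Cacna1c, Cacna1d, Cacnb1, Kcna4, Kcne4, Kcnh2, Kcnn1 and Kcnn2. The same pattern for another library held for Kcnj14 and Kcnma1 in WT 1, for Kcne1l and Kcnmb4os1 in KO 3, and for 0 members in KO 1 and KO 2. WT 2 was the lowest library for 31 members (31.3%, against 20.1%) and KO 2 for 1 (1.01%, against 12.8%). After 1 CPM was added to every level, which damps differences near 0, WT 1 and WT 2 differed at least 8-fold in 14 members (14.1%, against 6.34%). On that scale this was the most of any pair but WT 2 and KO 3 with 16. Actc1, a sarcomere actin, stood at 27.7 CPM in WT 2 and at 14313 to 31260 CPM in the others. Whether the muscle RNA accounts for these channel levels was not tested.

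**Figure D4:**
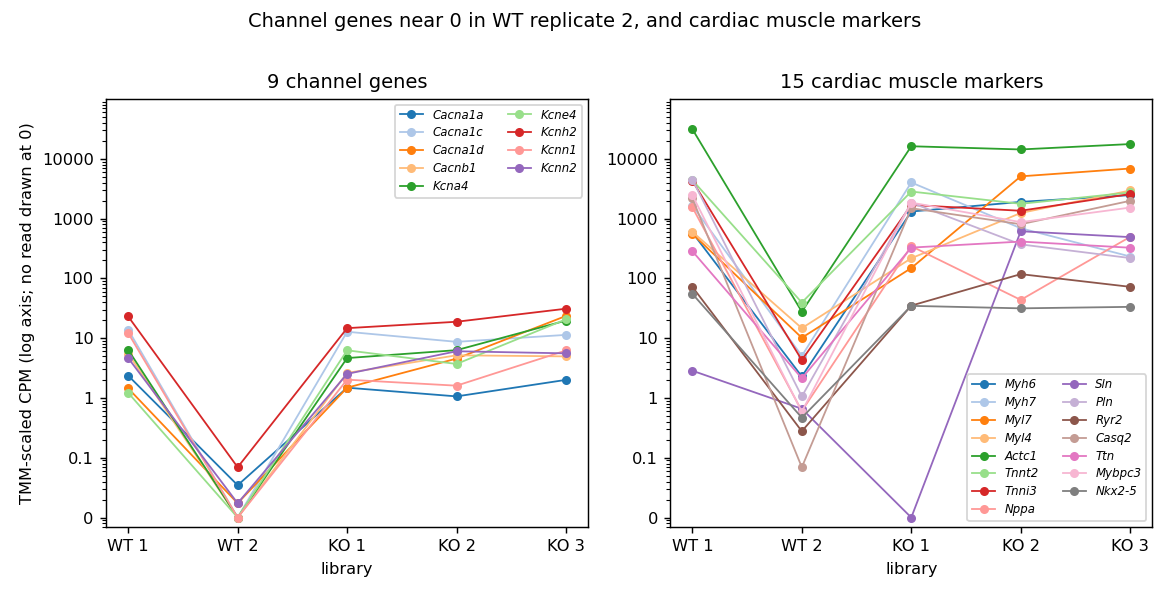
Level in each library, as TMM-scaled CPM (log axis), of 9 of the channel genes under 0.1 CPM in WT replicate 2 (left) and of 15 heart muscle markers (right), with lines joining values of 1 gene and no read drawn at 0. All 15 markers have their lowest or second lowest value in WT replicate 2, as the 9 channel genes have their lowest.

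The rank of the channel genes by level per kilobase of transcript (RPKM, with the longest transcript as length) also differed by library. Kcne1 led in WT 1 and KO 1, at 109 and 134 RPKM, followed by Kcnip2 (45.7) in WT 1 and Kcnj5 (17.5) in KO 1. In WT 2 the leaders were Kcnj8 (18.4) and Kcnn4 (16.7), then Kcnmb4 (9.80) and Kcnc2 (9.52), with none of the muscle delayed rectifier genes among the first 6. Kcnj5 led in KO 2 and KO 3, at 27.4 and 58.7, followed by Kcne1 (25.4) in KO 2 and Kcnk3 (11.6) in KO 3.

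Genes that anchor, regulate or traffic channels but lie outside the naming rule were read from a list of 52, of which 43 were tested. Fold changes were positive for 24 and negative for 19, with a median of 0.12, against 49.4% positive and a median of -0.01 over all genes. The KO libraries were all above the WT pair for 7 of the 43 and all below it for 3, where 13.5% and 11.1% of all genes did so. Ank3, the ankyrin that anchors sodium and Kv7 channels in axons, stood at 7.84 and 6.71 CPM in the WT libraries against 39.4, 39.4 and 40.2 CPM in the KO libraries (log2 fold change 2.45, SE 0.44). Its KO libraries lay within 1 CPM of each other, and it did not pass (adjusted p = 0.81, edgeR quasi-likelihood test). Nedd4, Nedd4l, Ahnak, Akap9, Rem1 and Rem2 were also higher in every KO library, and Gem and Calm3 were among those lower in every one. Some of these margins were narrow. Rem1 stood at 5.75 CPM in WT 1 and 5.85 CPM in KO 2 (log2 fold change 0.47, SE 0.82), and Akap9 at 9.17 CPM in WT 1 and 9.33 CPM in KO 3. Rem2 had 0 and 3 reads in the WT libraries. Nedd4 and Nedd4l are ubiquitin ligases that remove channels from the membrane, and Gem, Rem1 and Rem2 are small GTPases that inhibit calcium channels. Fgf12, which binds sodium channels, stood at 0.152 and 0.156 CPM in the WT libraries against 0.0632, 39.6 and 39.3 CPM in the KO libraries, again with KO 2 and KO 3 high.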

How the data were processed

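RNA of mitral valve leaflets was made into libraries with a low-input kit that amplifies whole cDNA without marking strand, per the labels' protocols. The submitters' processing notes list the tools HTSeq, DESeq2, FastQC 0.11.5 and cutadapt 1.11, and both GRCm38 and mm10 as builds. The aligner and the annotation were not given in the sources used here. What the authors deposited were raw counts per gene symbol and library, and these deposited counts alone were analysed. The authors' own statistics in the same table were not used.

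Counts were tested with edgeR 4.0.16 in R 4.3.3 over all genes (filterByExpr, 14244 of 17148 genes with a read, TMM factors between 0.837 and 1.073, robust quasi-likelihood F test, two-sided, Benjamini-Hochberg adjustment, threshold 0.05). The SE is the log2 fold change divided by the root of F. Median biological variation was 62.8%. An exact permutation test of 2 against 3 libraries cannot go below p = 0.2, so none was run. Alternatives were limma 3.58.1 (voom), DESeq2 1.42.0, the edgeR likelihood-ratio test, 2 other scalings, 2 filters, each library left out, the shared title code and a fit without the trend with transcript length. The pipeline was tested on simulated data. Folds against a group without reads use a floor of 3 reads over that group and are lower bounds, and intervals cover counting error only. Coordinates, exon overlaps and lengths are from GENCODE M21 (GRCm38), matched for all 99 members. 33 members have an exon that overlaps one of another gene.

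The members and lists were chosen with earlier results of these data known. Genes named were the 2 of each family with the highest level per kilobase, those with an unadjusted p under 0.05, those whose groups did not overlap, a list of heart and vessel channel genes, and those at the edges of the rule. Results on some single genes are not reported here.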

Additional observations from a re-analysis of the deposited data

How the results depend on the processing

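The count of channel genes called, 0, was 1 with the edgeR likelihood-ratio test and 5 with DESeq2, and 0 to 3 without any 1 library. Over all genes the same fits gave 50, 376 and 0 to 245. Members above both WT libraries numbered 8, and 11 to 33 without any 1 library (16.9 to 30.7% of all genes) and 37 of 90 tested within the shared title code (41.3% of all genes), where fewer libraries make separation easier. Those below numbered 1, and 1 to 18 (14.3 to 30.2% of all genes) and 21 (36.0%) in the same fits and 2 in the fit corrected for transcript length (11.3%). The median of the members, 0.50, was 1.69 with limma-voom, 1.46 within the title code, -0.089 corrected for length and 0.29 to 4.55 without any 1 library. The members tested also differed between these fits, from 72 to 95 without any 1 library, so these medians are not of 1 fixed set. That of the partner genes, 0.12, was 0.58 within the title code and 0.15 to 0.96 without any 1 library.

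Over 16 named genes, 199 of the alternative values kept direction and side of the threshold, and fold changes turned sign 17 times. Without any 1 library Cacna1c lay between -0.34 and 11.73, Kcnh2 between -0.10 and 8.18, Kcnc2 between -1.85 and 4.66, Kcnn4 between -1.79 and 2.42, Cacnb2 between -1.69 and 1.94, Kcnip2 between -3.96 and 12.02, and Kcnq1 between -1.45 and 3.74. The turns came without WT 1 (Cacnb2, Kcnip2 and Kcnq1), without WT 2 (Cacna1c, Kcnh2, Kcnc2 and Kcnn4) or without KO 3 (Kcnq1, 0.02). Within the title code Cacna1c was -0.36, Kcnh2 -0.46, Kcnc2 4.94 and Kcnn4 2.67. With limma-voom Kcnc2 was 0.17, Cacnb2 0.51, Kcnip2 2.81 and Kcnq1 1.61. Corrected for length Cacna1c was -0.79. The cause was not tested. Other scalings and filters changed no call. No paired analysis was possible because the labels give the groups no shared replicate numbers. WT 1, KO 1 and KO 2 share a title code that no label calls a pairing, and it was run as a separate fit on those 3 libraries. Low reads limit the members further, and 20 were not tested.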
